A study of Homo sapiens with 6 samples.

Results

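The genes described here encode the protein synthesis factors that act around start codon selection and after it: the eIF3 and eIF4 initiation factors, the eIF2B exchange factor, and the factors of elongation, termination and ribosome recycling. The list named 44 genes. Each was looked up in the deposited matrix among the 13021 gene identifiers with 1 row, and 42 had a row and were listed in all 3 cell lines. EIF6 and EEF1G had no row there and are not analysed here. The members were 13 eIF3 subunits, 9 eIF4 factors, 4 genes for eIF4E-binding and poly(A)-binding proteins, 5 eIF2B subunits, 3 further factors (EIF2A, EIF2D and EIF5A), 5 elongation genes and 3 termination and recycling genes.

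RNA sequencing had been done on HCT116, HT29 and SW480, which are established human colorectal cancer cell lines. The sample titles write the first as HCT116WT, without saying what WT refers to, and tag the knockdown of each line SH2. In each line 1 library came from cells with a stable lentiviral short hairpin RNA (shRNA) against BZW2 and 1 from cells with a non-targeting shRNA, called control here. Both kinds of cells had been infected with lentivirus and selected with puromycin at 1 µg/ml, so both carried a hairpin. The study set out to find genes and pathways that differ when BZW2 is depleted. Each group thus held 3 libraries, 1 from each line. The labels speak of no repeat culture of a line and do not say whether a knockdown population was a clone.

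As background, translation of most mRNAs starts when eIF4E binds the cap, the scaffold eIF4G and the helicase eIF4A join it as eIF4F, and eIF3 on the small ribosomal subunit docks to eIF4G. eIF2 brings the initiator tRNA as a GTP complex, and eIF2B recharges eIF2 with GTP. Stress kinases that phosphorylate eIF2 turn it into an inhibitor of eIF2B. BZW2, the depleted gene, is a relative of the eIF2 partner eIF5. Many mRNAs of the translation apparatus begin with a C followed by a run of pyrimidines, the terminal oligopyrimidine (TOP) motif, through which mTORC1 and LARP1 control their translation and stability.

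The start of 6 of these mRNAs is shown because members with and without such a start are compared further on. Each line gives 12 bases before and 18 bases from the transcript start annotated in RefSeq (GRCh38.p14), 5′ to 3′ on the gene's strand. Capitals mark the C at the start and the unbroken pyrimidines after it. Coordinates are chr19:3985446-3985475 on the minus strand for EEF2, chr6:73521015-73521044 on the minus strand for EEF1A1, and chr12:53006444-53006473 on the plus strand for EIF4B. They are chr2:206159883-206159912 for EEF1B2, chr11:7987325-7987354 for EIF3F and chr3:186783565-186783594 for EIF4A2, all on the plus strand.
EEF2: gacgtcagcgttCTCTTCCgccgtcgtcgc
EEF1A1: gccgtgaacgttCTTTTTCgcaacgggttt
EIF4B: cctcatccgggtCTTTTgcgttctctttcc
EEF1B2: gtctcttcgggtCCTTTTTCCTCTCTTCag
EIF3F: cgcttccgcctcCTTCTTTCTCgacaagat
EIF4A2: gggcgccgctgtCTTTTCagtcgggcgctg

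The promoters of the 5 eIF2B genes are shown because all 5 genes were higher in the knockdown library of every line. Each line gives 80 bases before and 20 bases from the RefSeq start (GRCh38.p14). Capitals mark GGAAGTG, the core of many ETS family binding sites, which was searched on both strands (the other strand reads CACTTCC). The windows are chr12:123633667-123633766 (minus strand) for EIF2B1, chr14:75002841-75002940 (plus) for EIF2B2 and chr1:44986576-44986675 (minus) for EIF2B3. They are chr2:27370319-27370418 (minus) for EIF2B4 and chr3:184135278-184135377 (plus) for EIF2B5.
EIF2B1: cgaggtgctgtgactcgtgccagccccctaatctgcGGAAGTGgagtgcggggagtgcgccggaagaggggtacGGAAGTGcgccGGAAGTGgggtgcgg
EIF2B2: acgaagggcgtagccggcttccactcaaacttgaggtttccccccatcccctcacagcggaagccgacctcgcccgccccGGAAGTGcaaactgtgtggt
EIF2B3: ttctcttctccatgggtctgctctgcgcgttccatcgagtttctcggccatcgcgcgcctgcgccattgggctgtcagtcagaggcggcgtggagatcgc
EIF2B4: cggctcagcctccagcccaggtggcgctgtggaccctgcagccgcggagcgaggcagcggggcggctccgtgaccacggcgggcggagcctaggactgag
EIF2B5: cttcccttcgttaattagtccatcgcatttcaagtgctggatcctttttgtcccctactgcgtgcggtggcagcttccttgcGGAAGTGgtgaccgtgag

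The motif occurred in 3 of the 5 windows. It occurred in 5.77% of all such windows in the RefSeq table, in 9.81% of the genes tested with a promoter there, and in 7 of the 33 members that matched the table. A match describes these letters and says nothing of a bound factor.

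Values below are counts of reads scaled to a common library total (counts per 1000000 reads over the listed genes, CPM), normalised by the trimmed mean of M values (TMM) within a line, and are compared only within a line. A ratio is knockdown over control, with an exact 95% Clopper-Pearson interval that covers counting error only. Across the lines, the fold change and its standard error came from limma on the log2 scale of the deposited value plus 1. In bulk RNA, fewer cells with a transcript and less of it per cell cannot be told apart.

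BZW2 itself was low in every knockdown library. It had 14.8, 14.8 and 12.4 CPM in the knockdown libraries of HCT116, HT29 and SW480, against 84.1, 170.7 and 91.5 CPM in their controls, so 17.6%, 8.69% and 13.5% of the control level remained. Its log2 fold change was -2.92 ± 0.40 (SE; limma adjusted p = 0.155), and -3.16 without HCT116 (adjusted p = 3.09e-04). The knockdown library of HCT116 stood apart from the others. It held 2187373 reads over listed genes, against 5640626 in its control, where the other 4 libraries held 5078001 to 9317444. It had 129 listed genes with 0 reads, and the log2 ratios of all its listed genes had an SD of 1.58. The SD was 0.67 in the HT29 pair and 0.70 in the SW480 pair. All 63 listed small nuclear and nucleolar RNA genes were higher in it, with a median log2 ratio of 3.13, while the HT29 median was 0.09 and the SW480 median -0.60. Its ratios also went with GC content, with a Spearman correlation of 0.66 over all listed genes, a value that was 0.31 for HT29 and -0.06 for SW480. All 24 listed clustered histone genes were higher in the knockdown library of every line, with median log2 ratios of 5.50 in HCT116, 1.51 for HT29 and 1.24 for SW480. The part that these features have in the members' ratios was not tested, so results are given with and without HCT116. Of 11 colorectal epithelial markers, 6 were listed in each line. In HCT116 they summed to 14587 CPM in the knockdown and 3783 CPM in the control library. KRT8, KRT18 and KRT19 made up most of both HCT116 sums and were higher in the knockdown library, as was CDX2. EPCAM (205 against 296 CPM) and CDH1 (79.7 against 172 CPM) were lower in it. The sums were 9030 and 10414 CPM in HT29, and 6557 and 6725 CPM in SW480. No leukocyte or endothelial marker was listed, and of 6 fibroblast markers only COL1A1 was, at up to 6.13 CPM.

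No member passed the test across lines. The smallest adjusted p among the 42 was 0.327, for EIF5A (limma, Benjamini-Hochberg over 10875 genes), and 0 of 10875 genes passed it (0%). At an unadjusted p under 0.05, 4 members were higher (EIF3B, EIF4G1, EIF2B5 and EIF5A) and 1 was lower (PABPC1), against 6.59% of all genes higher and 7.04% lower. DESeq2 and edgeR's quasi-likelihood test also called 0 members, although DESeq2 called 244 genes in all. Without HCT116 no member passed either, with a smallest adjusted p of 0.150, while 338 genes did.

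Directions shared by the lines are given as counts beside those of all genes. In all 3 lines, 13 members (31.0%) were higher in the knockdown library, against 22.3% of all genes tested. They were EIF3B, EIF3G, EIF3I, EIF3K, EIF4G1, EIF4H, the 5 eIF2B genes, EIF5A and EEF1D. A further 7 members (16.7%) were lower in all 3 lines, against 21.1% of all genes: EIF3A, EIF3E, EIF3M, EIF4A2, EIF4G3, EIF2A and PABPC1. In HT29 and SW480 alone, 16 members were higher in both and 9 lower in both, where 32.5% and 30.7% of all genes were.

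The size of the ratios was set apart by line. A ratio of at least 2-fold with at least 5 CPM in the higher library was seen for 11 members higher and 9 lower in HCT116. The shares of all genes were 26.8% and 28.8%, taken over the 11363 genes with at least 5 CPM in the higher library. Shares in the other lines are over genes chosen in the same way. In HT29 no member reached it in either direction, where 3.74% of genes were higher and 6.17% lower. In SW480 no member was higher by that much and 1, EEF2, was lower, against 4.98% and 7.36% of genes. The members' log2 ratios had SDs of 1.20 (HCT116), 0.39 (HT29) and 0.50 (SW480), each below that of all listed genes of the line. The listed genes had no CPM filter here and included some with as few as 21 reads over a pair. Level was not matched in this comparison.

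**Figure D1:**
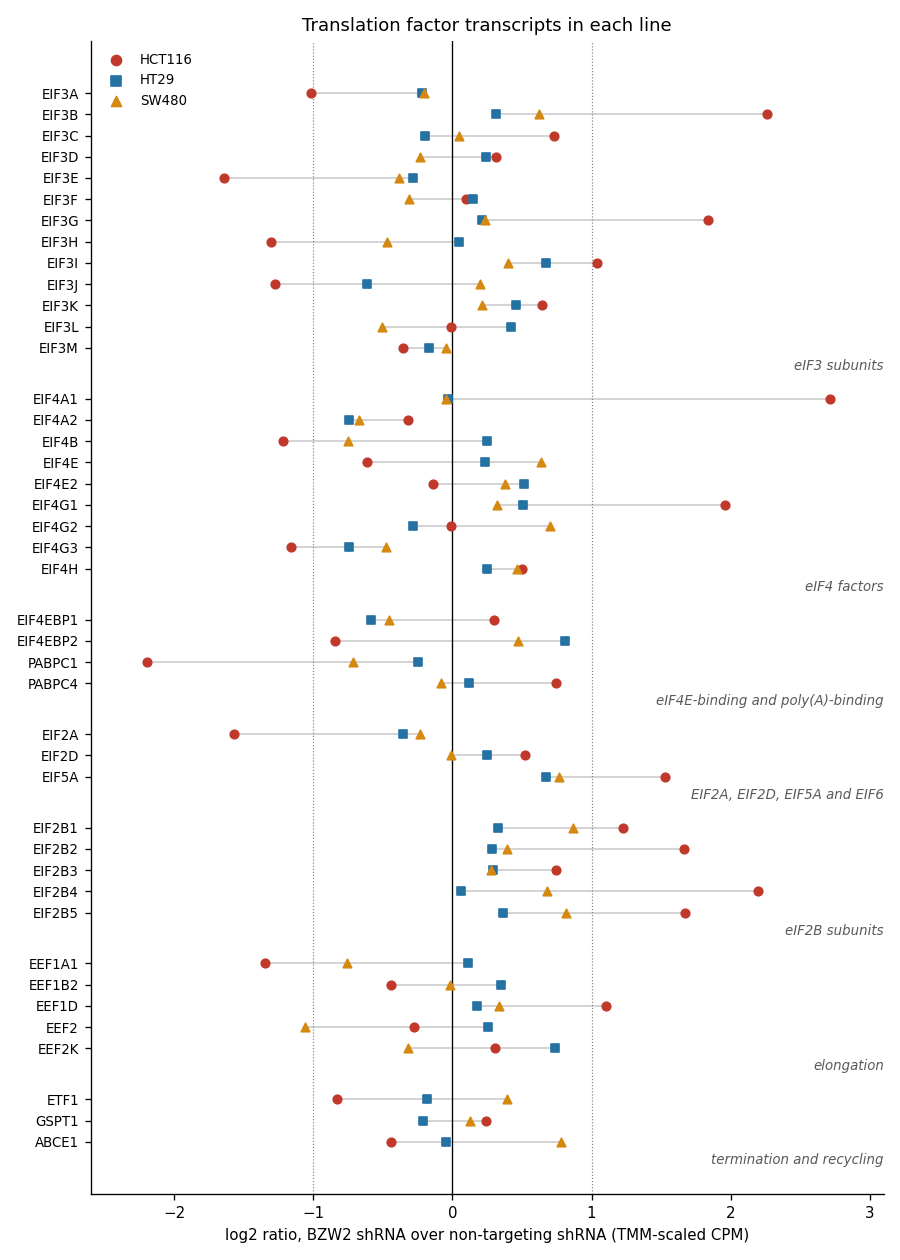
Log2 ratio of TMM-scaled CPM, BZW2 shRNA over non-targeting shRNA, for the 42 listed members, grouped by role with the group's name under it. Each point is 1 line with 1 library per treatment, and dotted lines mark 2-fold. The HCT116 points (circles) reach from -2.19 to 2.71, the HT29 points (squares) from -0.74 to 0.81 and the SW480 points (triangles) from -1.06 to 0.87, and all eIF2B points lie above 0.

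The eIF2B subunits were the one group whose members all went the same way in every line. All 5 were higher in the knockdown library of HCT116, HT29 and SW480, with median log2 ratios of 1.67, 0.29 and 0.68, where the medians of all genes tested were -0.04, 0.01 and 0.01. Of all genes tested, 49.1%, 51% and 50.8% were higher in these lines and 50.9%, 49% and 49.2% lower. The median fold change across lines was 0.85 on the log2 scale and 0.41 without HCT116. None of the 5 passed the test across lines in either fit.

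EIF2B5 (ENSG00000145191, chr3:184135038-184146112 on the plus strand of GRCh38 in GENCODE 29) encodes the epsilon subunit, the catalytic one, which carries the nucleotide exchange activity. It had 170.1, 71.2 and 93.5 CPM in the knockdown libraries of HCT116, HT29 and SW480, against 53.1, 55.3 and 53.0 CPM in the controls. The ratios were 3.20 (2.74 to 3.74), 1.29 (1.15 to 1.45) and 1.77 (1.52 to 2.05), all above 1 beyond counting error. Its log2 fold change was 0.99 ± 0.40 (SE; limma adjusted p = 0.351), and 0.62 without HCT116 (adjusted p = 0.232). EIF2B4 encodes the delta subunit, part of the regulatory core that senses phosphorylated eIF2. It had 105, 30.1 and 39.5 CPM in the knockdown libraries, against 22.5, 28.8 and 24.5 CPM in the controls. Its ratio ran from 4.65 (3.74 to 5.80) in HCT116 to 1.05 (0.880 to 1.24) in HT29, so in HT29 the 2 libraries did not differ beyond counting error.

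EIF2B1, the alpha subunit of the same core, had 55.2, 56.4 and 33.6 CPM in the knockdown libraries, against 23.3, 44.9 and 18.3 CPM in the controls. EIF2B2, the beta subunit, had 67.4, 28.9 and 44.2 CPM in the knockdown libraries, against 20.9, 23.6 and 33.5 CPM in the controls. EIF2B3, the gamma subunit that pairs with epsilon, had 44.5, 39.5 and 36.5 CPM in the knockdown libraries, against 26.3, 32.2 and 30.1 CPM in the controls. All 3 were higher in each line, and only the SW480 ratio of EIF2B3, 1.21 (0.982 to 1.5), had an interval that reached 1. After a correction of the ratios for GC content and transcript length the eIF2B medians were 1.53, 0.32 and 0.78. With the GC content and length of the principal transcript they were 1.34, 0.30 and 0.66, and EIF2B4 in HT29 turned to -0.07, so the shared direction then held for 4 of the 5.

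**Figure D2:**
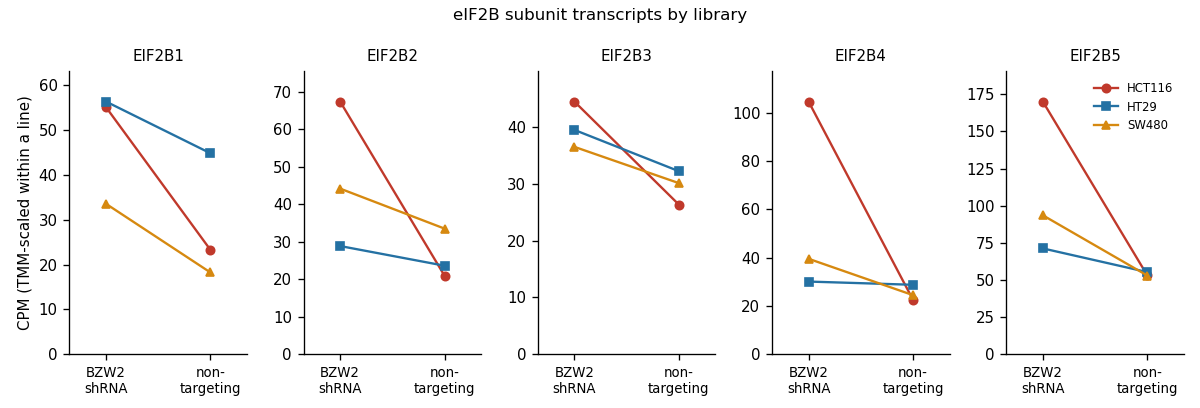
CPM of the 5 eIF2B subunit genes in the BZW2 shRNA library (left) and the non-targeting library (right) of each line, 1 library per point, with vertical axes that start at 0. Every line joining a pair slopes down from knockdown to control, most in HCT116 (circles), where EIF2B4 had 105 CPM against 22.5 CPM.

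The eIF3 subunits did not move as 1 complex. In HCT116, HT29 and SW480 their median log2 ratios were 0.10, 0.15 and -0.05, with 7, 8 and 6 of 13 subunits higher. Across lines 4 subunits were higher in all 3 and 3 were lower in all 3. No subunit passed the test across lines (smallest limma adjusted p = 0.295 without HCT116 and 0.351 with it).

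Of the subunits that were higher, EIF3B is a core scaffold that binds EIF3G and EIF3I. It had 1206, 504 and 474 CPM in the knockdown libraries of HCT116, HT29 and SW480, against 251, 406 and 308 CPM in the controls. The 3 ratios were 4.81 (4.51 to 5.13), 1.24 (1.19 to 1.30) and 1.54 (1.45 to 1.64), and the log2 fold change 1.10 ± 0.45 (SE; limma adjusted p = 0.351), and 0.50 without HCT116 (adjusted p = 0.372). EIF3G, an RNA-binding subunit of that module, had 632, 169 and 186 CPM in the knockdown libraries, against 176, 146 and 158 CPM in the controls. EIF3I, its WD-repeat partner, had 589.6, 455 and 393 CPM in the knockdown libraries, against 287, 285 and 298 CPM in the controls. The EIF3I ratio was 1.60 (1.52 to 1.68) in HT29 and 1.32 (1.24 to 1.41) in SW480. So the 3 genes of the module formed by EIF3B, EIF3G and EIF3I were each higher in all 3 lines. After the GC content and length correction EIF3G was not, since its log2 ratios were then 0.64, -0.03 and 0.23. EIF3K, a small subunit outside that module, had 113, 164 and 80.04 CPM in the knockdown libraries, against 72.0, 119.5 and 69.0 CPM in the controls.

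Of the subunits that were lower, EIF3A is the largest scaffold of the complex. It had 459, 669 and 932 CPM in the knockdown libraries, against 928, 777 and 1073 CPM in the controls. EIF3E, a PCI-domain subunit that contacts eIF4G, had 347, 644 and 1022 CPM in the knockdown libraries, against 1082, 784 and 1333 CPM in the controls. The EIF3E ratio was 0.321 (0.296 to 0.347) in HCT116, 0.821 (0.793 to 0.850) in HT29 and 0.767 (0.741 to 0.794) in SW480. It was thus below 1 beyond counting error in each line. After the correction its log2 ratios were -0.29, 0.03 and -0.58, so HT29 turned. EIF3M, which also has a PCI domain, had 268, 406 and 339 CPM in the knockdown libraries, against 343, 456 and 349 CPM in the controls. Its SW480 interval, 0.909 to 1.03, included 1.

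The other 6 subunits differed in direction between lines. EIF3H, the MPN-domain subunit known for its effect on the translation of selected mRNAs, had 217, 1196 and 381 CPM in the knockdown libraries, against 535, 1157 and 528 CPM in the controls. EIF3J, the loosely bound subunit at the mRNA channel, had 24.0, 156 and 78.0 CPM in the knockdown libraries, against 58.7, 238 and 67.8 CPM in the controls. Both were at least 2-fold lower in HCT116 and in no other line, and both calls ended under the GC content and length correction, at log2 ratios of -0.11 for EIF3H and 0.009 for EIF3J. EIF3D, which can bind the cap of some mRNAs, EIF3F and EIF3L had log2 ratios between -0.51 and 0.42 in all lines. EIF3C, a core scaffold, had only 14 to 104 reads in a library, and its near-identical neighbour EIF3CL had no row, so its counts may hold a part of the reads of both genes.

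By level per transcript length, EIF3E was the highest eIF3 subunit in all 3 control libraries, at 1564, 1074 and 1694 length-scaled CPM in HCT116, HT29 and SW480. EIF3C was the lowest, at 2.998, 7.69 and 5.64, and EIF3F the next lowest at 57.5, 65.9 and 41.9. The same genes held these places when the principal transcript was used in place of the longest one. For EIF3F both are the same length, 7540 bases, so this change could not check the length behind its place.

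Among the eIF4 factors, close relatives differed from each other in direction or size. The median log2 ratios of the 9 genes were -0.14, 0.24 and 0.32 in HCT116, HT29 and SW480, and 2 genes were higher and 2 lower in all 3 lines. None passed the test across lines (smallest limma adjusted p = 0.363).

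EIF4G1, the main scaffold of eIF4F, had 800.1, 340.4 and 229 CPM in the knockdown libraries of HCT116, HT29 and SW480, against 205, 239.9 and 183 CPM in the controls. Its log2 fold change was 0.97 ± 0.42 (SE; limma adjusted p = 0.363), and 0.44 without HCT116 (adjusted p = 0.396). EIF4G3, a second scaffold that also binds eIF4E and eIF4A, had 33.2, 101 and 53.5 CPM in the knockdown libraries, against 74.9, 169.6 and 74.7 CPM in the controls. EIF4G1 was thus higher and EIF4G3 lower in every line, and the difference of their log2 ratios came to 3.12 for HCT116, 1.25 for HT29 and 0.80 for SW480. EIF4G2, a related scaffold without the eIF4E-binding part, had 479.8, 1087 and 917 CPM in the knockdown libraries, against 483, 1321 and 563 CPM in the controls, higher in SW480 only.

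EIF4A2, a paralog of the helicase EIF4A1, had 532, 467 and 623 CPM in the knockdown libraries, against 663, 781 and 993 CPM in the controls. Its ratios of 0.803 (0.750 to 0.860), 0.598 (0.576 to 0.622) and 0.628 (0.602 to 0.655) were all below 1. After the GC content and length correction its log2 ratio turned to 1.21 in HCT116 and was -0.39 in HT29 and -0.66 in SW480. The log2 fold change was -0.54 ± 0.36 (SE; limma adjusted p = 0.473), and -0.68 without HCT116 (adjusted p = 0.248). EIF4A1 had 267, 45.2 and 47.1 CPM in the knockdown libraries, against 40.3, 46.1 and 48.6 CPM in the controls. It was 6.63-fold (5.70 to 7.74) higher in HCT116, and in HT29 and SW480 the intervals included 1. A readthrough gene, SENP3-EIF4A1, overlaps EIF4A1 on its strand and had no row, and 3 small nucleolar RNA genes lie inside EIF4A1, so these reads may not all belong to it. EIF4A2 holds 5 such genes, and a gene on the other strand overlaps it.

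The helicase partners differed from each other. EIF4H, which stimulates eIF4A, had 542, 597 and 680.1 CPM in the knockdown libraries, against 382, 502 and 493 CPM in the controls, and was higher in each line, though its HCT116 log2 ratio of 0.50 turned to -0.14 after the correction. EIF4B, which stimulates it too and is a TOP mRNA, had 899, 1355 and 1476 CPM in the knockdown libraries, against 2095, 1141 and 2486 CPM in the controls. EIF4B was lower in HCT116 and SW480 and higher in HT29, all beyond counting error. The cap-binding EIF4E had 73.1, 138 and 199.6 CPM in the knockdown libraries, against 112, 117 and 128 CPM in the controls. Its relative EIF4E2, which binds the cap without joining eIF4G1, had 36.3, 91.3 and 58.8 CPM in the knockdown libraries, against 40.0, 63.9 and 45.2 CPM in the controls. Both were higher in HT29 and SW480 and lower in HCT116, where the interval of EIF4E2 included 1. By level per length EIF4E was the lowest of the 9 in all 3 control libraries, at 28.0, 27.7 and 28.2 length-scaled CPM. Its longest and principal transcripts have the same length, 11523 bases, so the length behind this place could not be checked. Before scaling by length EIF4E had more CPM than EIF4E2 in each control library.

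**Figure D3:**
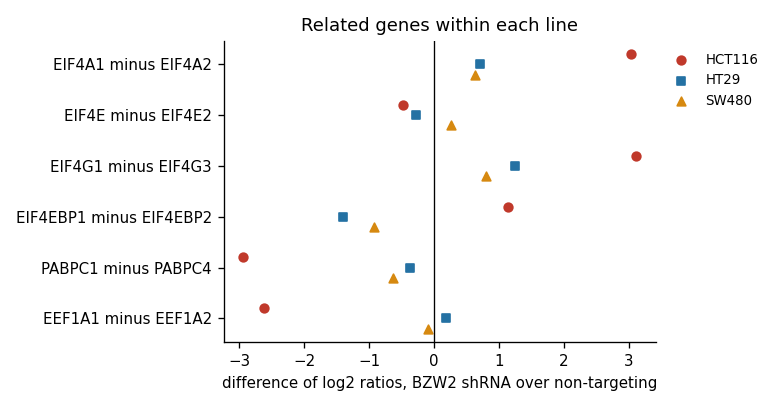
Difference of the within-line log2 ratios (BZW2 shRNA over non-targeting shRNA) between pairs of related genes, 1 point per line. EIF4A1 minus EIF4A2 and EIF4G1 minus EIF4G3 lie above 0 and PABPC1 minus PABPC4 below 0 in all 3 lines, while EIF4EBP1 minus EIF4EBP2 is 1.15 in HCT116 and below 0 in HT29 and SW480.

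The proteins that restrain eIF4E and bind the poly(A) tail also split by paralog. EIF4EBP1 and EIF4EBP2 encode repressors that keep eIF4E from eIF4G until mTORC1 phosphorylates them. EIF4EBP1 had 48.0, 15.2 and 29.1 CPM in the knockdown libraries of HCT116, HT29 and SW480, against 38.9, 22.9 and 39.9 CPM in the controls. EIF4EBP2 had 62.8, 251 and 137 CPM in the knockdown libraries, against 113, 143 and 98.9 CPM in the controls. In HT29 and SW480 EIF4EBP1 was lower and EIF4EBP2 higher, beyond counting error, and in HCT116 EIF4EBP2 was lower. The GC content and length correction turned both genes in HCT116. It took the log2 ratio of EIF4EBP1 from 0.30 to -0.65 and that of EIF4EBP2 from -0.85 to 0.13. With the principal transcript they came to -0.75 and 0.15. PABPC1 (ENSG00000070756, chr8:100685816-100722809, minus strand), the main cytoplasmic poly(A)-binding protein, had 257, 655 and 726 CPM in the knockdown libraries, against 1179, 777 and 1191 CPM in the controls. Its ratios were 0.218 (0.199 to 0.239), 0.843 (0.815 to 0.873) and 0.610 (0.586 to 0.634), the lowest of any member in HCT116. The log2 fold change was -1.02 ± 0.45 (SE; limma adjusted p = 0.365), and -0.45 without HCT116 (adjusted p = 0.481). PABPC4, its paralog, had 225, 112 and 131 CPM in the knockdown libraries, against 134, 103.5 and 138 CPM in the controls. It was higher beyond counting error in HCT116 only. GENCODE names 13 pseudogenes of PABPC1, to which part of its reads could have been assigned.

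Of the other initiation factors, EIF5A (ENSG00000132507, chr17:7306999-7312463, plus strand), which carries hypusine and helps ribosomes through stretches such as polyproline, had the smallest adjusted p of all members. It had 647, 362 and 425 CPM in the knockdown libraries, against 224.5, 226 and 249.5 CPM in the controls. The ratios were 2.88 (2.67 to 3.11), 1.60 (1.51 to 1.69) and 1.71 (1.59 to 1.83), all above 1 beyond counting error, and the HT29 and SW480 ratios lay close together. Its log2 fold change was 1.03 ± 0.37 (SE; limma adjusted p = 0.327), and 0.75 without HCT116 (adjusted p = 0.150). EIF2A, an alternative carrier of initiator tRNA that is no part of eIF2, had 72.6, 300.0 and 216.5 CPM in the knockdown libraries, against 216, 384 and 254 CPM in the controls, lower in each. EIF2D, a factor of reinitiation and recycling once named ligatin, had log2 ratios of 0.52, 0.25 and -0.01.

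The elongation genes were all higher in HT29, at a median log2 ratio of 0.25, and 4 of 5 were lower in SW480, at a median of -0.32. In HCT116 the median was -0.28, with 2 higher and 3 lower. None passed the test across lines (smallest limma adjusted p = 0.458).

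EEF1A1, which delivers aminoacyl-tRNA to the ribosome, was the member with the most reads. It had 7791, 18492 and 12285 CPM in the knockdown libraries of HCT116, HT29 and SW480, against 19772, 17087 and 20715 CPM in the controls. The ratios were 0.394 (0.388 to 0.401), 1.08 (1.08 to 1.09) and 0.593 (0.588 to 0.599), lower in HCT116 and SW480 and higher in HT29. GENCODE names 39 pseudogenes of EEF1A1. EEF2, the translocation factor, had 4490, 3697 and 2552 CPM in the knockdown libraries, against 5442, 3099 and 5320 CPM in the controls. In SW480 its ratio of 0.480 (0.470 to 0.489) was the lowest of all members. EEF2K, the kinase that inhibits EEF2, had 56.2, 41.1 and 36.0 CPM in the knockdown libraries, against 45.4, 24.6 and 45.0 CPM in the controls, with HT29 and SW480 on opposite sides of 1.

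Of the exchange factors for EEF1A1, EEF1B2 had its direction in each line, though the SW480 interval of EEF1B2, 0.945 to 1.03, included 1. EEF1D had the other direction in HCT116 and SW480. EEF1B2, a nucleotide exchange subunit, had 577, 947 and 750.5 CPM in the knockdown libraries, against 782, 745 and 761 CPM in the controls. EEF1D, another exchange subunit, had 452, 268 and 258 CPM in the knockdown libraries, against 210.3, 237.5 and 204.5 CPM in the controls, and was the one elongation gene higher in all 3 lines. Per transcript length EEF1A1 was the highest of the 5 genes, at 12805, 10490.0 and 11796 length-scaled CPM in the HCT116, HT29 and SW480 control libraries, followed by EEF2 at 4947, 2671 and 4253.

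The 3 termination and recycling genes were all lower in HT29 and all higher in SW480. Of all genes tested, 49% were lower in HT29 and 50.8% higher in SW480. ETF1, the release factor that reads stop codons, had 199.3, 394 and 479.4 CPM in the knockdown libraries, against 355, 447 and 365 CPM in the controls. GSPT1, its GTPase partner, had 228, 292 and 183.5 CPM in the knockdown libraries, against 193, 339 and 168 CPM in the controls. ABCE1, which splits the ribosome after termination, had 187.5, 232 and 458 CPM in the knockdown libraries, against 255, 239 and 267 CPM in the controls. In SW480 the ratios were 1.31 (1.24 to 1.39), 1.09 (1.00 to 1.20) and 1.72 (1.61 to 1.83), the lower bound of GSPT1 lying just under 1. In HT29 the ABCE1 libraries did not differ beyond counting error. The GC content and length correction put the HT29 log2 ratios of ETF1, GSPT1 and ABCE1 at -0.11, 0.03 and 0.29. GSPT1 and ABCE1 thus turned there. By the principal transcript these ratios were -0.05, -0.10 and 0.33, and GSPT1 in SW480 came to -0.02.

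The start of the transcript went with direction in SW480. Of the 33 members with a RefSeq promoter, 11 began with C and at least 4 further pyrimidines at 1 or more of their promoters. They were EIF3D, EIF3F, EIF3K, EIF3M, EIF4A2, EIF4B, EIF2A, EIF2D, EEF1A1, EEF1B2 and EEF2. In SW480, 10 of these 11 were lower in the knockdown library, against 3 of the 22 with another start, with median log2 ratios of -0.24 against 0.40. In HT29 it was 3 of 11 against 8 of 22, with medians of 0.25 against 0.27, and in HCT116 7 of 11 against 8 of 22, with medians of -0.32 against 0.62. This grouping was chosen after the values had been seen, so it is a description with no test. Over all genes tested with a promoter, 59.8% of the 679 with such a start were lower in SW480, against 46.8% of the 8016 with another start. The same shares were 44.6% against 49.2% in HT29 and 54.6% against 50.6% in HCT116. The 11 genes differ from the 22 in level as well, since they include EEF1A1 and EEF2. The sequences given above show how far the pyrimidine run varied. EEF2, EEF1A1, EIF4B and EIF4A2, with runs of 7, 7, 5 and 6 bases, had SW480 log2 ratios of -1.06, -0.75, -0.75 and -0.67. EIF3F, with 10 bases, was at -0.32, and EEF1B2, with 16 bases, at -0.02. Runs of the other members with such a start are not given, and a link between run length and ratio was not tested.

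**Figure D4:**
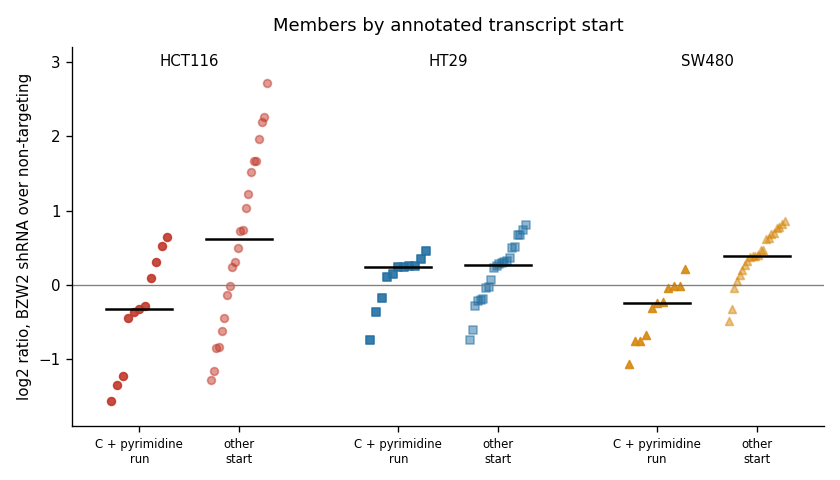
Log2 ratio, BZW2 shRNA over non-targeting shRNA, of the 33 members with a RefSeq promoter, in each line. The 11 with a start of C and at least 4 further pyrimidines at any promoter are on the left and the 22 others on the right. Points are genes and bars are medians. In SW480 10 of 11 lie below 0 on the left and 3 of 22 on the right, while in HT29 the medians are 0.25 and 0.27.

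A list of textbook TOP mRNAs gave a similar picture by counts. It held 9 listed members, EEF1A1, EEF1B2, EEF1D, EEF2, EIF3E, EIF3F, EIF3H, EIF4B and PABPC1, of which 5 also have the start described above and the other 4 (EEF1D, EIF3E, EIF3H and PABPC1) were not classed by start. In SW480 8 of the 9 were lower in the knockdown library, against 12 of the other 33 members, with median log2 ratios of -0.47 against 0.23. In HT29 2 of 9 were lower against 13 of 33, with medians of 0.15 against 0.24, and in HCT116 7 of 9 against 13 of 33, with medians of -1.22 against 0.32. EEF1D was higher in both HCT116 and SW480, and EIF3F, at 0.10, in HCT116.

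GC content of the transcript went with the members' ratios in HCT116 and HT29. Over the 42 members the Spearman correlation between the log2 ratio and the GC content of the longest transcript came to 0.59 for HCT116, 0.48 for HT29 and 0.05 for SW480. It is a description across genes that share the same 2 libraries. GC-poor EIF3E, at 37.9%, and EIF2A, at 39.7%, were low in HCT116, and GC-rich EIF3G, at 60.3%, and EIF3B, at 56.0%, were high. PABPC1, at 51.1%, was low, and EEF2, at 59.9%, was not high. After the correction for GC content and length, 12 of the 42 members changed direction in HCT116, 8 of them to higher, against 5 in HT29 and 1 in SW480. Of the 9 members at least 2-fold lower in HCT116, 1 remained, PABPC1 at -2.62, and EEF2 joined it at -1.44. Of the 11 at least 2-fold higher there, 7 remained among 15. The larger turns in HCT116 were those of EIF4E to 1.28, EIF3M to 1.22, EIF4A2 to 1.21 and ABCE1 to 0.98, where the uncorrected log2 ratios were -0.61, -0.36, -0.32 and -0.44. EIF3A came to -0.003 and EEF1D to -0.042, and EIF5A, at 0.49, was no longer 2-fold higher.

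**Figure D5:**
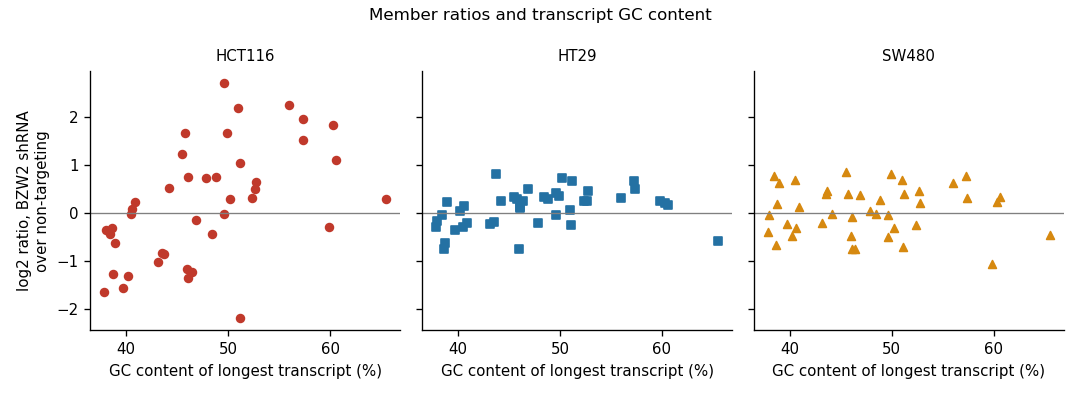
Log2 ratio of each of the 42 members (BZW2 shRNA over non-targeting shRNA) against the GC content of its longest transcript in percent, 1 panel per line. The points climb with GC content in HCT116 (Spearman 0.59) and in HT29 (0.48) and show no slope in SW480 (0.05).

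Other genes of the pathway were described by a second list. Of 49 further genes of initiation, elongation factor modification, termination and rescue, 46 were listed in all lines and 0 passed the test across lines (limma). In all 3 lines 7 of them (15.2%) were higher and 14 (30.4%) lower, against 22.3% and 21.1% of all genes. Their median log2 ratios were -0.63 in HCT116, -0.07 for HT29 and -0.03 for SW480. Without HCT116 only BZW2 passed. Among those that make the modified residues of EIF5A and EEF2, DOHH, the deoxyhypusine hydroxylase, had 89.4, 20.4 and 28.5 CPM in the knockdown libraries, against 13.0, 16.6 and 13.5 CPM in the controls. DPH2, a diphthamide synthesis enzyme, had 109.9, 27.7 and 26.4 CPM in the knockdown libraries, against 18.2, 20.9 and 16.9 CPM in the controls. Both were thus higher in each line, with limma adjusted p of 0.339 and 0.351. Other diphthamide genes were not, since DPH5 (log2 ratios of -1.11, -0.28 and -0.15) and DPH6 (-1.39, -0.28 and -0.15) were lower in each line, and DPH1, DPH3 and DPH7 differed in direction between lines. DHPS, the enzyme before DOHH, was not, with log2 ratios of 0.89, -0.07 and -0.29.

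GLE1, known for mRNA export and a role in initiation and termination, had 148, 52.5 and 81.2 CPM in the knockdown libraries, against 46.5, 30.1 and 52.4 CPM in the controls. PDCD4, an inhibitor of eIF4A, had 4.60, 46.8 and 25.6 CPM in the knockdown libraries, against 52.4, 52.2 and 46.8 CPM in the controls. EIF4E3, a cap-binding relative of EIF4E, had 3.07, 2.34 and 18.3 CPM in the knockdown libraries, against 24.6, 2.79 and 33.9 CPM in the controls. GLE1 was higher and the other pair lower in each line, with limma adjusted p of 0.334, 0.352 and 0.371. EIF4E3 in HT29 rested on 21 against 26 reads, both under 5 CPM. The HCT116 knockdown library held 6 reads of EIF4E3 and 9 of PDCD4. No counting intervals are given for the genes of this list. EIF2S2, the beta subunit of eIF2, had 51.6, 617.5 and 299 CPM in the knockdown libraries, against 302, 884 and 391.5 CPM in the controls (limma adjusted p = 0.359). EIF1, which guards start codon choice, had 177, 161 and 146 CPM in the knockdown libraries, against 226, 300.3 and 284 CPM in the controls. Its log2 fold change was -0.70 ± 0.36 (SE; limma adjusted p = 0.391), and -0.90 without HCT116 (adjusted p = 0.0824).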

How the data were processed

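RNA of 6 libraries was analysed. Per the submitters' processing notes, the tools were bcl2fastq 2.17, STAR 2.5.2b and DESeq, on GRCh38; no counter, annotation release or strand setting is given in the sources used here. How reads were split among overlapping, antisense and near-identical genes is therefore uncertain. The authors deposited a normalised signal per gene, read counts over a size factor; within a line the 2 factors multiply to 1, so they had been set line by line. Whole reads were recovered for 100% of values within 0.1 read, and 1 library's smallest value stood for 2 reads. The table had 266314 rows for 13040 identifiers, and 19 repeated identifiers were left out. Symbols matched 13003 identifiers and GENCODE 29 matched 13018.

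Because the values were normalised, the test across lines was limma 3.58.1 (R 4.3.3) with an intensity trend on log2(value + 1), the 1 being a pseudocount, with line and treatment as terms and two-sided. Genes had to reach a value of 1 in 3 libraries (0 removed), and p was adjusted by Benjamini-Hochberg over 10875 genes at 0.05. It had 2 residual degrees of freedom and at least 7.26 prior ones. Fold changes on that scale understate low genes. Lines are the replicates, so p measures spread among these 3 lines. Libraries were paired by the cell line in the labels. After removal of group means, the correlation of same-line libraries was 0.28 (HCT116), 0.75 (HT29) and 0.45 (SW480). The HCT116 control correlated more with the SW480 knockdown (0.38) than with its own, so this measure did not set the HCT116 pair apart. Within a line, with 1 library per treatment, no test was made: log2 ratios of TMM-scaled CPM (edgeR 4.0.16, prior count 2) and exact Clopper-Pearson intervals at 95% (SciPy 1.17.1) are given, and ratios of at least 2-fold with CPM of at least 5 are counted. Length-scaled CPM are reads per base of the longest transcript, scaled to 1000000 per library. Alternatives used edgeR's quasi-likelihood test, DESeq2 1.42.0, voom, other scalings, pseudocounts and filters, a GC content and length correction (mgcv 1.9.3), and leaving out each line. The fits were tested on simulated data.

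The members, lists and alternatives were chosen with earlier results of these data known. Every member could be named: in full, those with 1 direction in all lines, at least 2-fold in a line, or at the extremes of their group; of the further pathway genes, the 8 with the smallest p and 1 direction in all lines, BZW2 among them. DHPS and the other DPH genes were added after their values were seen. Start sequences and promoters are from the RefSeq table (33 members matched). For the start classes, a gene with several promoters counted as having the pyrimidine start if any of them had it. For the motif and the printed sequences it was represented by the first.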

Additional observations from a re-analysis of the deposited data

Results flagged for a closer look

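In 4 members a ratio of at least 2-fold in 1 line stood against a ratio on the other side of 1, beyond counting error, in another line. EIF3H had a log2 ratio (BZW2 shRNA over non-targeting shRNA) of -1.30 in HCT116 and 0.05 in HT29. EIF4B had -1.22 in HCT116 and 0.25 in HT29. EEF1A1 had -1.34 in HCT116 and 0.11 in HT29. EEF2 had -1.06 in SW480 and 0.25 in HT29. After the GC content and length correction none of these reached 2-fold: EIF3H was at -0.11, EIF4B at -0.94 and EEF1A1 at -0.98 in HCT116, and EEF2 at -0.95 in SW480. The same correction took EEF2 in HCT116 from -0.28 to -1.44, past 2-fold, with 0.09 in HT29. With 1 library per treatment in a line, none of these differences between lines was tested. All 4 genes are on the list of TOP mRNAs. HT29 was the opposing line for each, so being higher there is part of how they were picked. In HT29, 7 of the 9 members on that list and 27 of all 42 members were higher.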

How the results depend on the processing

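No alternative brought a member past the adjusted threshold. The number of all genes past it was 0 in limma, 244 with DESeq2, 2 with the GC content and length correction and 8 with that of the principal transcript (added after seeing the data), and 57 to 338 when 1 line was left out; the cause was not tested. Without the replicate block, that is without pairing by cell line, it was 0, and this changed no member's call. Members at least 2-fold lower in HCT116 were 2 under both GC corrections, 1 of them among the original 9. In SW480 EEF2 no longer counted under either (0 members). At 1.5-fold, which loosens the threshold, 4 members were higher and 4 lower in HT29, and 8 higher and 5 lower in SW480. Members lower in all lines were 4 with the principal transcript and 9 to 13 over 2 lines, where fewer lines must share a direction.

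Of the members' log2 fold changes under these alternatives, 551 kept their direction and 37 changed it, none past the threshold. The library-total scaling moved the median of all genes to -0.10, from 0.02. With DESeq2, TMM-scaled CPM, edgeR, library-total scaling and voom, EIF3F came to -0.028, -0.042, -0.042, -0.11 and -0.037, and EIF3L to -0.038, -0.052, -0.052, -0.12 and -0.052. Library totals put EIF4E at -0.004 and GSPT1 at -0.039. The GC correction, by longest then principal transcript, put EIF3D at -0.19 and -0.13, EIF3L at -0.16 and -0.076, EIF3M at 0.45 and 0.52 and ETF1 at 0.016 and 0.11. It put EIF4A2 at 0.04 by the longest, and EIF3C at -0.084 and EIF4E2 at -0.033 by the principal transcript. Within HCT116 it changed the direction of 12 and 14 members, most of them under 2-fold before; of those at least 2-fold it put EIF3J at 0.009 and 0.13, EEF1D at -0.042 and -0.17, and EIF3A at 0.047 by the principal transcript.

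With 1 line left out, the log2 fold change ran from -0.21 to 0.40 for ABCE1, -0.19 to 0.19 for EEF1B2, -0.63 to 0.026 for EEF2, -0.046 to 0.44 for EIF3C and -0.07 to 0.16 for EIF3F. It ran from -0.22 to 0.24 for EIF3L, -0.008 to 1.38 for EIF4A1, -0.15 to 0.47 for EIF4E, -0.15 to 0.67 for EIF4EBP2, -0.11 to 0.39 for EIF4G2, -0.47 to 0.13 for ETF1 and -0.013 to 0.23 for GSPT1. EIF3C had 14 to 104 reads in a library, the fewest of any member.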
